A study of Mus musculus with 4 samples.

Results

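Expression of 10 genes that write, remove or read methylation of histone H3 at lysine 9 (H3K9) was measured in cultured mouse aortic smooth muscle cells. The genes were taken by name: the methyltransferases Ehmt1, Ehmt2, Setdb1, Setdb2, Suv39h1 and Suv39h2, the demethylases Kdm3a and Kdm4a, and the heterochromatin protein 1 (HP1) genes Cbx1 and Cbx5. All 10 were found among the 25965 genes of the deposited table. The study sequenced poly(A)-selected RNA from 4 libraries of vascular smooth muscle cells, the contractile cells of the arterial wall, all wild type on the C57Bl/6 background. The cells were released from the medial layer of aortas of healthy male mice aged 8 to 14 weeks, and were kept in DMEM with 10% FCS through 3 to 5 passages. The 4 libraries form 1 group without a second condition, so levels were compared between genes of a library and between libraries. The labels do not say whether the libraries came from separate animals or cultures, and the spread between them may therefore be partly technical.

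Methylation of H3K9 marks silent chromatin. The products of Ehmt1 (GLP) and Ehmt2 (G9a) work as a complex that mainly places mono- and dimethylation in gene-rich chromatin, those of Suv39h1 and Suv39h2 place trimethylation at pericentromeric repeats, and that of Setdb1 places trimethylation at retroelements and other sites to which zinc finger proteins and Trim28 bring it. Setdb2 encodes a related SET domain protein. Kdm3a encodes a demethylase of mono- and dimethylated H3K9, and Kdm4a one of the trimethylated form. Cbx1 (HP1 beta) and Cbx5 (HP1 alpha) encode chromodomain proteins that bind the methylated lysine. In vascular smooth muscle, H3K9 dimethylation has been linked to the restraint of inflammation-induced genes.

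The promoter windows of 4 of the methyltransferase genes are shown. They were chosen for the highest mean level (Ehmt2), the lowest mean level (Setdb2) and the largest SD between libraries (Suv39h1 and Suv39h2). Each window runs from 250 bases before to 50 bases after a RefSeq start site on GRCm38.p6 and is printed on the strand of the gene. Capitals mark GC boxes with the letters GGGCGG, E2F motifs with the letters TTTCGCGC, TTTGGCGC or TTCCCGCC, and boxes with the letters CCAAT. All were searched on both strands.
Ehmt2, chr17:34898224-34898523, plus strand: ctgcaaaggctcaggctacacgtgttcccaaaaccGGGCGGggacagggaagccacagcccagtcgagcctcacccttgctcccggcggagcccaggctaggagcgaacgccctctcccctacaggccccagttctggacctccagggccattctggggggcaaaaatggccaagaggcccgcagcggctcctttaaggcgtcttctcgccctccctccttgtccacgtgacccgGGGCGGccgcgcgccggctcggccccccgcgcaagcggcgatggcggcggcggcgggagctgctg
Suv39h1, chrX:8074711-8075010, minus strand: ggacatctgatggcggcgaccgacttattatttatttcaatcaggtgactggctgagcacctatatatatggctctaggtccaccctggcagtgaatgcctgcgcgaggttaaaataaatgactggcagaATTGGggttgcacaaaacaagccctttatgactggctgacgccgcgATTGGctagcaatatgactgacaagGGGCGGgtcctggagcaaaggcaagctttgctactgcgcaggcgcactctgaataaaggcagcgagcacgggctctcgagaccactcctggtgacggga
Suv39h2, chr2:3474937-3475236, minus strand: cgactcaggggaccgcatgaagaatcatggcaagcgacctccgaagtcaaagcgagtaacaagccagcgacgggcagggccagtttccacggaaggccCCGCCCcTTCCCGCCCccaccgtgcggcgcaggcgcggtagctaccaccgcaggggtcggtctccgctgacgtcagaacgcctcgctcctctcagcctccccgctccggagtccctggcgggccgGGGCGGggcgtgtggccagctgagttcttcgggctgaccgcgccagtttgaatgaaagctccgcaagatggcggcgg
Setdb2, chr14:59440831-59441130, minus strand: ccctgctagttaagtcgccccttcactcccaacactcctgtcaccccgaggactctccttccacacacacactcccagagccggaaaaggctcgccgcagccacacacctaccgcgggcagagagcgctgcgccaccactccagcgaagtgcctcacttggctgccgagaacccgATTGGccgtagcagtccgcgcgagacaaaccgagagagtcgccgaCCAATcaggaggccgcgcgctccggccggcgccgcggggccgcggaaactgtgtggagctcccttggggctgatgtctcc
The E2F motif of the Suv39h2 window begins 145 bases before the start site and overlaps a GC box on the opposite strand. It was the only E2F match among the 10 genes, against 3.97% of 16042 promoters of genes in the table and 5.72% of 8591 promoters of detected genes. GC boxes lay in 8 of the 10 windows, against 67.1% of the promoters of detected genes, and CCAAT boxes in 6 of 10, against 38.8%. The Suv39h1 window held a pair of CCAAT boxes and 1 GC box, the Setdb2 window a pair of CCAAT boxes and no GC box, and the Ehmt2 window a pair of GC boxes only. None of the 10 windows held a TATA box (TATAAA, 6.53% of promoters of detected genes) or an ETS motif (CCGGAAGT, 8.67%). The windows of the 10 genes held a median of 26 CpG dinucleotides, against 21 for detected genes, from 13 in Kdm4a to 34 in Ehmt1. A match describes letters in a window and does not show that a factor was bound.

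Levels are given as log2 scaled reads, the unit of the deposited table, which were not divided by gene length. Detection meant a value no lower than 0 on this scale in each of the 4 libraries, equal to 30, 29, 22 and 30 reads in libraries 1 to 4. The libraries held 40342561 to 56793195 recovered reads on genes, the fewest in library 3. A sequenced fragment may have been counted more than once in these sums. Library 3 also had the largest share of mitochondrial reads (0.382%, against 0.0653% to 0.133% in the others). All 6 smooth muscle markers were detected, led by Acta2 and Tagln (12.18 ± 1.05 and 11.48 ± 0.71, mean ± SD, n = 4). None of 5 leukocyte markers was detected, where Cd68 had 49, 35, 42 and 21 reads and C1qa 173, 201, 0 and 18. Of 5 endothelial markers 3 were detected, led by Tie1 (3.42 ± 0.80) and Pecam1 (2.95 ± 1.04), and of 5 adventitial fibroblast markers 4 were detected, led by Serpinf1 (6.46 ± 2.26) and Pdgfra (5.92 ± 1.22). In bulk RNA, fewer cells of a type and less RNA per cell cannot be told apart.

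Of the 10 H3K9 genes, 9 were detected, where 47.4% of all genes in the table were. The exception was Suv39h2, which fell short in library 3 alone, with 17 reads.

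Ehmt2 was the highest of the 10 genes. Its log2 levels were 9.59, 10.04, 9.41 and 9.42 in libraries 1 to 4, from 15005 to 30415 reads (chromosome 17, 34898469 to 34914052, GRCm38). The values lay close together, with library 2 above the other 3. Its partner Ehmt1 had 6.04, 5.63, 4.78 and 4.91 (chromosome 2, 24790769 to 24919609), with libraries 1 and 2 above libraries 3 and 4.

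Setdb1 had log2 levels of 5.01, 4.74, 3.83 and 4.13 (chromosome 3, 95323525 to 95357202), again higher in libraries 1 and 2. Setdb2 stood just above the detection threshold at 1.31, 0.54, 0.63 and 0.17, from 72, 42, 34 and 33 reads (chromosome 14, 59402009 to 59440884). It was the lowest of the 10 genes by its mean, while Suv39h2 was lower in libraries 1 and 3 (1.16 and -0.37). Exons of the neighbouring gene Lass2 (now Cers2) and of Gm37500, both on the other strand, cover 4.73% of the Setdb1 exons. Lass2 had 795 to 1828 reads in all, against 312 to 939 for Setdb1, and whether the counting used strand is not stated. A transcript of another gene, Gm4349, matches Setdb1 with 99.4% identity over 645 bases.

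Suv39h1 had log2 levels of 4.04, 4.15, 2.88 and 2.59, from 478, 514, 162 and 177 reads (chromosome X, 8061171 to 8074760). Libraries 1 and 2 were alike, and both lay above libraries 3 and 4. Suv39h2 had 65, 181, 17 and 104 reads, or 1.16, 2.65, -0.37 and 1.82 (chromosome 2, 3455815 to 3475031). It had another order of libraries, with library 2 highest and library 3 lowest. Antisense or neighbouring exons cover 14.6% of the Suv39h1 exons (Gm14820, with 25 to 133 reads) and 9.98% of those of Suv39h2 (Dclre1c, 43 to 120 reads, and Gm13184, at most 2 reads). Whether the counting used strand is not stated in the labels, and reads from these partners cannot be told apart from those of the low Suv39h2.

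The demethylase gene Kdm4a had log2 levels of 7.95, 7.66, 6.71 and 7.26 (chromosome 4, 118136957 to 118180043), and Kdm3a had 5.01, 4.32, 3.21 and 3.90 (chromosome 6, 71588974 to 71632905). Both were highest in library 1 and lowest in library 3.

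Of the HP1 genes, Cbx5 had 7.64, 7.42, 7.10 and 6.87 (chromosome 15, 103191544 to 103239816), lowest in library 4. Cbx1 had 6.20, 5.99, 5.05 and 5.60 (chromosome 11, 96789127 to 96808640), lowest in library 3. A transcript of Gm7128 matches Cbx1 with 94.0% identity over 252 bases, and reads of such copies may be assigned to one another. The plot of values by library shows the 10 genes in the order of their means.

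**Figure D1:**
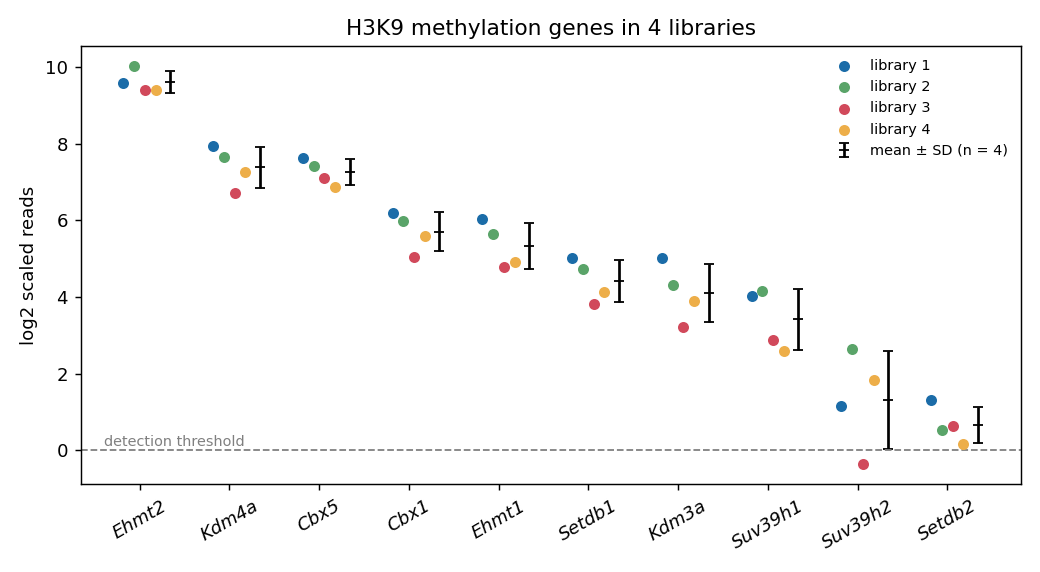
Log2 scaled reads (y axis) of the 10 H3K9 methylation genes (x axis) in each of the 4 libraries (coloured points), with the mean and SD beside them (black, n = 4) and the detection threshold at 0 (dashed line). Ehmt2 lies highest in each library, and Suv39h2 in library 3 (-0.37) is the only point below the threshold.

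Genes were compared with each other after division by the length of their annotated exons (log2 scaled reads per kb of exon). On this scale Ehmt2 averaged 7.16 ± 0.29 and stood at percentile 92.9 to 95.1 of the detected genes in the 4 libraries. Kdm4a followed at 4.86 ± 0.54, Cbx5 at 4.09 ± 0.34 and Cbx1 at 3.61 ± 0.50. These 4 genes lay above the median over detected genes of 2.93. Ehmt1 (2.32 ± 0.60), Setdb1 (1.65 ± 0.54), Kdm3a (1.07 ± 0.76) and Suv39h1 (1.02 ± 0.80) lay below it. Suv39h2 (-0.83 ± 1.28) and Setdb2 (-1.36 ± 0.48) closed the order, Setdb2 at percentile 1.53 to 3.99. The median of the 10 genes was 1.99.

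The first 6 genes of this order, from Ehmt2 to Setdb1, came in the same sequence in each of the 4 libraries. Neighbours in the order did not always differ beyond their spread. Kdm3a and Suv39h1 differed by 0.05 ± 0.54 within libraries, with Kdm3a higher in 2 of 4, and Suv39h2 and Setdb2 by 0.53 ± 1.47, with Suv39h2 higher in 2 of 4. Cbx5 exceeded its neighbour Cbx1 in 4 of 4 libraries by 0.47 ± 0.34, a difference that turned to -0.34 when the longest transcript was used as the length, so the order of the HP1 genes depends on the length taken.

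**Figure D2:**
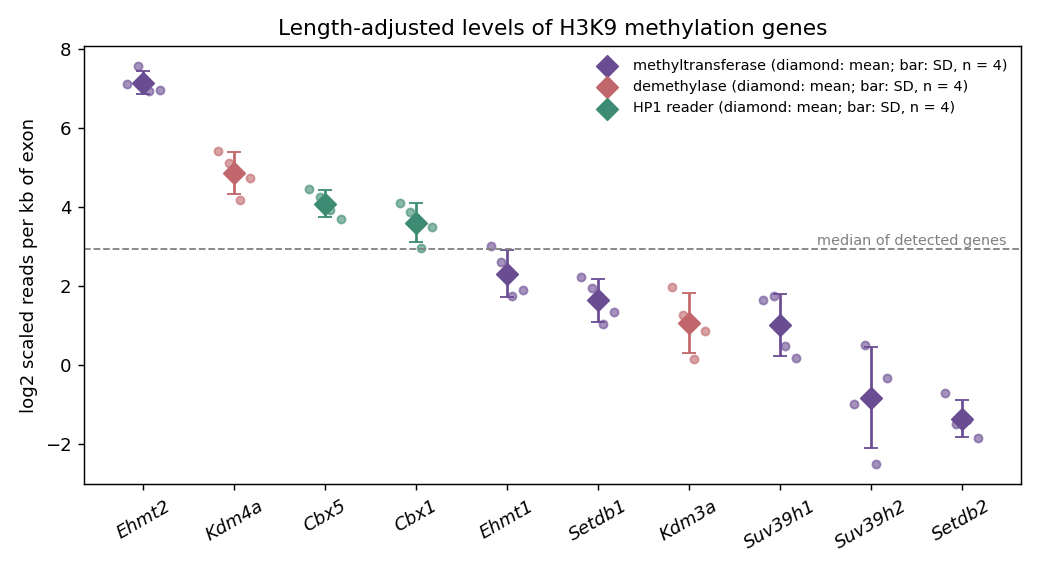
Log2 scaled reads per kb of exon (y axis) of the 10 genes (x axis), coloured by role, with single libraries as small points, the mean as a diamond and the SD as a bar (n = 4). Ehmt2 at 7.16 stands apart from the other methyltransferase genes, whose means all lie below the median over detected genes of 2.93 (dashed line). The point of Ehmt1 in library 1 (3.02) lies above that line but below the median over detected genes of library 1 itself (3.30).

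Within a library, differences between genes do not depend on how libraries were scaled, and 9 of them were compared per kb of exon. Among paralogs, Ehmt2 exceeded Ehmt1 by 4.11, 4.97, 5.20 and 5.07 log2 units in libraries 1 to 4 (4.84 ± 0.49, a 28.6-fold difference of the geometric means). Library 1 had the smallest difference. Setdb1 exceeded Setdb2 by 2.95, 3.44, 2.44 and 3.20 (3.01 ± 0.43, 8.03-fold), with the libraries close together.

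Suv39h1 exceeded Suv39h2 by 2.62, 1.25, 3.00 and 0.51 (1.84 ± 1.16, 3.59-fold). This was the most variable of the differences, large in libraries 1 and 3 and small in libraries 2 and 4, and it was 2.57 with the length of the longest transcript. Kdm4a exceeded Kdm3a by 3.44, 3.85, 4.01 and 3.87 (3.79 ± 0.25, 13.9-fold), the most even difference.

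Writers were also set against erasers of the same methylation state. Ehmt2 exceeded Kdm3a by 5.16, 6.30, 6.79 and 6.10 (6.09 ± 0.68, 68.0-fold). Suv39h1 minus Kdm4a gave -3.77, -3.38, -3.70 and -4.54 (-3.85 ± 0.49), so Kdm4a was 14.4-fold higher. The writer led in the first pair and the eraser in the second, in 4 of 4 libraries each. These results hold for the genes paired. Other demethylase genes had other levels, such as Kdm1a at 3.97 per kb against 1.07 for Kdm3a.

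By role, the median of the 6 methyltransferase genes was 1.33 ± 0.65, that of the 2 demethylase genes 2.97 ± 0.64 and that of the 2 HP1 genes 3.85 ± 0.39. The methyltransferase median lay below the demethylase median, with differences of -1.75, -1.35, -1.41 and -2.02 (-1.63 ± 0.32). It also lay below the HP1 median, with differences of -2.35, -2.21, -2.68 and -2.83 (-2.52 ± 0.29). The demethylase median rests on 2 genes that lay far apart (Kdm4a 4.86 and Kdm3a 1.07). The medians of lists of further pathway genes had the opposite order. The list of other writers also holds partners that are not methyltransferases, such as Trim28, so the comparisons are unlike. The median of 14 other writers and writer partners was 1.86 ± 0.37, and that of 10 other demethylase genes 1.10 ± 0.50. Ehmt2 itself stood above every demethylase and HP1 gene of the 10. All 9 differences had 1 sign in 4 of 4 libraries, and each gave p = 0.13 in a two-sided exact permutation test over the 16 ways to flip the signs of the libraries (adjusted p = 0.13, Benjamini-Hochberg over 9). With 4 libraries this test cannot give a lower p, so no difference can pass 0.05 by it.

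As a share of the summed reads per kb of the 6 methyltransferase genes, Ehmt2 made up 89.1%, 92.7%, 94.4% and 93.6% in libraries 1 to 4 (92.5% ± 2.3, SD, n = 4). Ehmt1 contributed 3.37% ± 1.21 and Setdb1 2.09% ± 0.63. Suv39h1 contributed 1.38% ± 0.52, Suv39h2 0.436% ± 0.255 and Setdb2 0.265% ± 0.096. The shares describe RNA and not enzyme.

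Levels differed between libraries of the same kind. An SD above 0.5 between libraries was found for 6 of the 9 detected genes, namely Ehmt1, Setdb1, Suv39h1, Kdm3a, Kdm4a and Cbx1, beside 40.5% of all detected genes. Cbx1 (0.502) lay just above this limit and Setdb2 (0.476) just below it. Suv39h1 spanned 2.95-fold from its lowest to its highest library and Kdm3a 3.50-fold, against 1.54-fold for Ehmt2 and 1.70-fold for Cbx5. Suv39h2, which was not detected in library 3, spanned 8.10-fold. Without library 1, only Suv39h1 and Kdm3a kept an SD above 0.5. The share of all detected genes without library 1 was not computed. None of the 9 had an SD above 1, beside 5.8% of detected genes.

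The spread depended on how the libraries were scaled. Library 1 was highest for 7 of the 10 genes and library 2 for 3, and library 3 was lowest for 7 and library 4 for 3. Over all detected genes, 53.6% were likewise highest in library 1 and 52.9% lowest in library 3 (17.5% in library 4), and the median detected gene lay at 5.49, 5.22, 4.78 and 4.95 in libraries 1 to 4. Median-ratio size factors moved the libraries by 0.31, 0.10, -0.29 and -0.11. After this rescaling Suv39h1 alone of the detected genes kept an SD above 0.5 (0.60), beside 30.7% of all detected genes, and Kdm3a lay at the limit (0.499). The median SD of the 10 genes fell from 0.54 to 0.32, against 0.43 and 0.37 for detected genes. Library 1 was then highest for 6 of the 10 genes (32.1% of detected genes), library 3 lowest for 5 (28.5%) and library 4 lowest for 4 (17.5%).

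**Figure D3:**
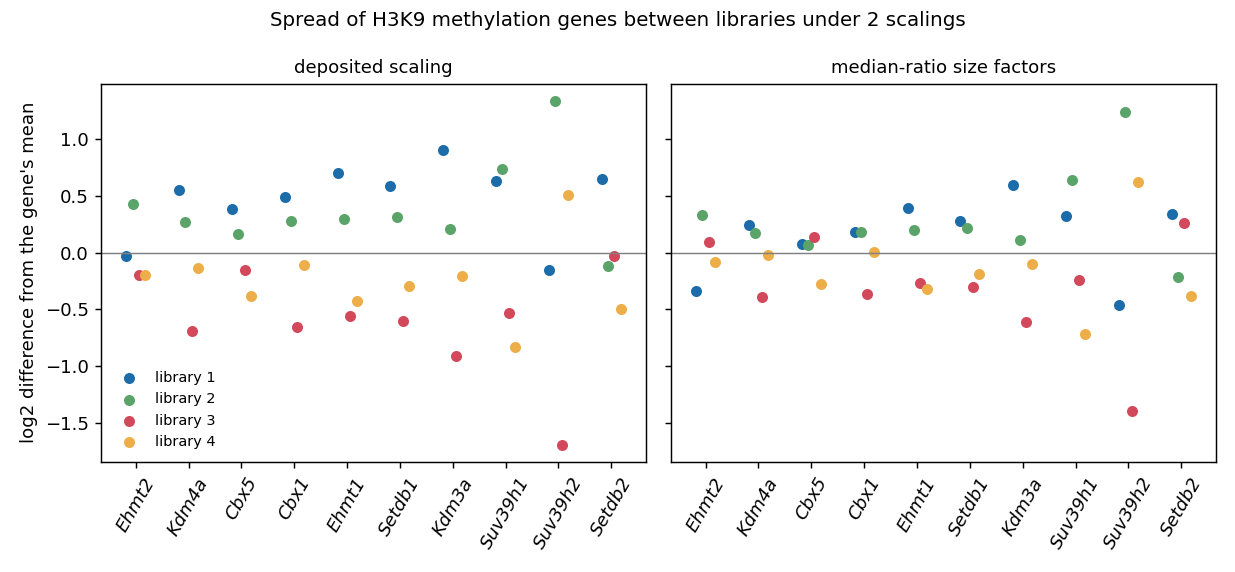
Difference of each library from the mean of the gene (y axis, log2) for the 10 genes (x axis), on the deposited scaling (left) and after median-ratio size factors (right), with libraries as colours. The points draw together on the right for most genes, while Suv39h1 (SD 0.60) and Suv39h2 (SD 1.16) stay spread.

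Recovered reads were set against Poisson sampling with a chi-square test, in which 10 of 10 genes differed between libraries by more than counting error, beside 89.5% of all genes with reads (87.4% with size factors). The largest adjusted p was that of Setdb2, 0.00064 (chi-square test, Benjamini-Hochberg over 18524 genes), and it was 0.047 with size factors. The test compares these 4 libraries. It treats each counted read as independent.

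Ehmt2, Suv39h1 and Suv39h2 were the 3 of the 10 genes that were highest in library 2, also after rescaling. Of all detected genes, 23.6% were highest there on the deposited scaling and 21.4% after rescaling, so 3 of 10 lay near the share of all genes. The 3 genes differed in their lowest library after rescaling, which was library 1 for Ehmt2 (9.28), 4 for Suv39h1 (2.70) and 3 for Suv39h2 (-0.08). The 12 cell cycle genes listed were all highest in library 2 under both scalings, beside the same shares of detected genes. Their list median was 5.86, 6.26, 4.36 and 4.52 in libraries 1 to 4. E2f1, encoding an S phase transcription factor, had 7.12, 7.71, 6.24 and 6.19, and the topoisomerase gene Top2a had 8.05, 8.80, 7.08 and 7.35. The replication gene Mcm6 had 6.98, 7.76, 6.44 and 6.94, with libraries 1 and 4 nearly level. The lowest of the list per kb, the mitotic genes Aurkb and Bub1 and the replication gene Mcm2, ranged from 62 to 638, 72 to 760 and 203 to 2086 reads. Markers of other cell types moved as well. The median of 5 adventitial fibroblast markers was 7.15, 6.77, 2.72 and 1.92, with Lum lowest at 11 to 342 reads, while the median of the 6 smooth muscle markers was 8.20, 7.27, 8.76 and 9.37. The endothelial list median was 2.82, 2.37, 3.63 and 1.46, with Kdr at 1 to 30 reads. The leukocyte list median was -1.05, -0.10, -4.61 and -1.29, with Ptprc at 0 to 27 reads and Cd3e without reads in any library. What part proliferation, other cells or depth had in the spread of the H3K9 genes was not tested.

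The wider set of H3K9 genes was present almost in full. Of 31 further genes of the pathway, 29 were detected, beside the 47.4% of all genes given above, and 16 of the 29 had an SD above 0.5 (40.5% of all detected genes), or 11 after rescaling (30.7%). Among 14 other writers and writer partners, 13 were detected. Trim28, the corepressor that recruits Setdb1 to zinc finger proteins, was highest at 6.83 ± 0.23 log2 scaled reads per kb, near Ehmt2. Mphosph8, a chromodomain subunit of the HUSH complex, had 3.96 ± 0.49, and Chaf1a, the large subunit of the chromatin assembly factor, 3.81 ± 0.94. At the low end were Zfp644, a zinc finger partner of the Ehmt1 and Ehmt2 complex (0.38 ± 0.36), and Tasor, the HUSH scaffold gene (-0.51 ± 0.50, listed as D14Abb1e). Atf7ip2 had 3, 0, 0 and 2 reads and was the one not detected. A count of 0 allows up to 3 reads, for counting error only.

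Of 10 other demethylase genes, 9 were detected. Kdm1a, encoding the flavin-dependent demethylase LSD1, was highest at 3.97 ± 0.22 log2 scaled reads per kb, followed by Kdm4b (3.09 ± 0.34), a paralog of Kdm4a, and Phf2 (2.61 ± 0.80), which encodes a PHD finger protein. Jmjd1c, a paralog of Kdm3a, was low at 0.45 ± 0.34 and Kdm7a lower at -0.96 ± 0.65. Kdm4d, a paralog of Kdm4a known from testis, was not detected, with 19, 21, 7 and 21 reads. Kdm4a at 4.86 ± 0.54 thus averaged above each of these 10 genes.

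Of 7 other reader and heterochromatin genes, 7 were detected. Daxx, the histone H3.3 chaperone gene, had 4.45 ± 0.17 log2 scaled reads per kb, Uhrf1, whose product binds methylated H3K9 and hemimethylated DNA, 3.77 ± 1.03, and L3mbtl2 2.78 ± 0.43. Uhrf1 had 2659, 3559, 630 and 1040 reads in libraries 1 to 4. Libraries 1 and 2 lay above libraries 3 and 4, as for Suv39h1 and for the median detected gene. Atrx, the partner of Daxx, had 2.10 ± 0.64, Lbr, the lamin B receptor gene that binds HP1, 2.08 ± 0.31, and Uhrf2 1.15 ± 1.17. Cbx3 (HP1 gamma), the remaining HP1 gene and named here after its values were seen, had 2.40 ± 0.07, below Cbx5 and Cbx1. This rank was not checked with the length of the longest transcript. The SD of Cbx3 over the libraries was 0.07 on the deposited scaling and 0.21 after rescaling.

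**Figure D4:**
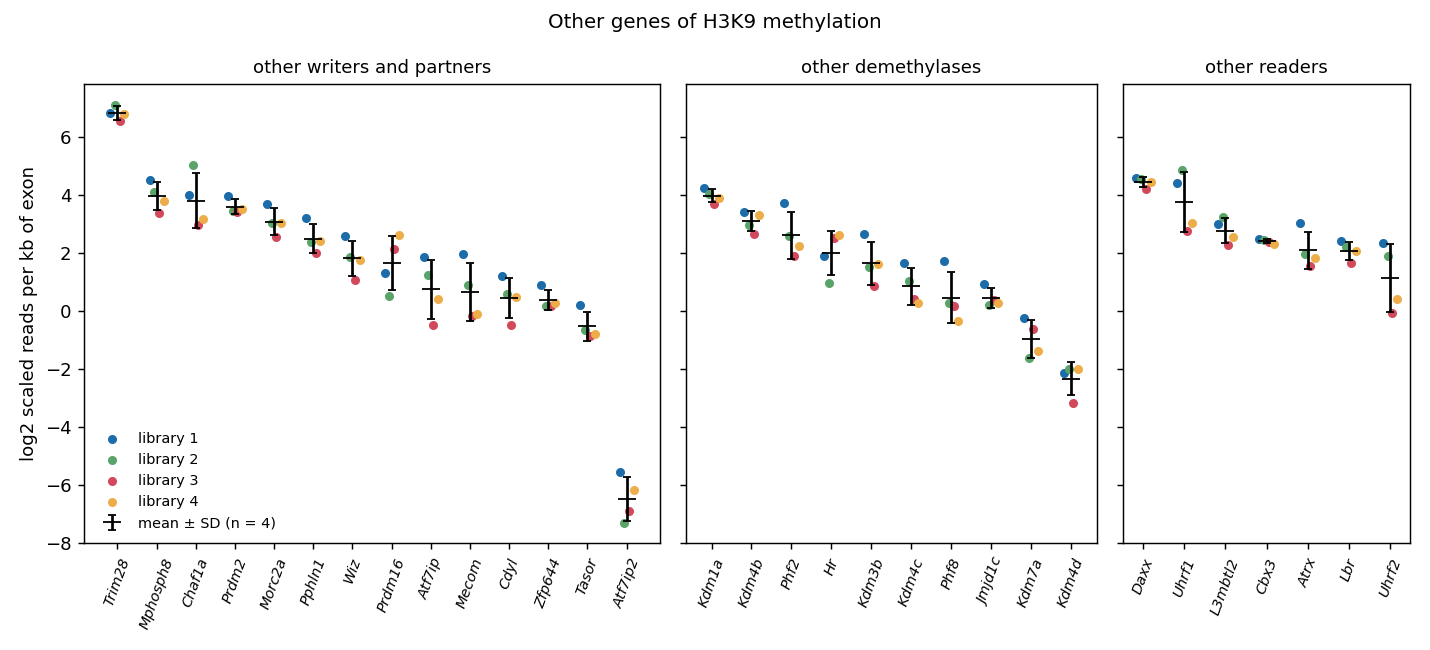
Log2 scaled reads per kb of exon (y axis) of 31 further H3K9 methylation genes (x axis) in 3 lists, by library (coloured points), with the mean and SD (black, n = 4). Trim28 (6.83) is the highest, and Atf7ip2, without reads in libraries 2 and 3 and plotted there at the floor of the deposited table, is the lowest.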

How the data were processed

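Poly(A) RNA libraries were made with a strand-preserving kit, per the labels' protocols. The submitters' processing notes list Trim Galore, cutadapt and TopHat with the build GRCm38, and no version. The counting tool is not given in the sources used here. The authors deposited log2 values, which step in whole reads of a size fixed per library, with 0.9 read standing for none. Dividing by that size recovered the reads: 99.7% to 99.8% of values above the floor were whole to within 0.05 read. Columns were matched to libraries by name, and libraries are numbered in the order of the labels. Values were divided by the union of exons of GENCODE M21 (GRCm38), matched by symbol or synonym and position for 94.7% of rows, of which 58.6% had the same start and end. Of 2 rows of a symbol, the one with the longer span was used. Size factors were medians of ratios over detected genes. Differences were tested with an exact sign-flip permutation test, which was checked on fixed values with a known answer. Reads were tested with a chi-square test, which was checked on simulated data. Near-identical transcripts were searched with blastn 2.17.0 (identity of at least 90% over 200 bases). Promoter sequences are from RefSeq (GRCm38.p6), matched for 10 of 10 genes, using the start nearest to the deposited one. Alternatives were other thresholds, lengths, scalings and leaving out each library. Named were the 10 genes, the 3 highest and 3 lowest of each further list and those not detected, and the 2 highest of each marker list; exceptions are values beside results. The 10 genes and the lists were chosen with earlier results of these data known. All 88 list entries were matched, 3 of them under another symbol. Python 3.11.15 was used with pandas 2.3.3, scipy 1.17.1, matplotlib 3.10.9 and numpy 2.4.6.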

Additional observations from a re-analysis of the deposited data

Results flagged for a closer look

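Of 36 values checked over the 4 libraries, 1 had a library far from the others: the share of Ehmt1 in the reads per kb of the 6 methyltransferase genes was 5.17% in library 1 against 2.96%, 2.57% and 2.78% in libraries 2 to 4. The gap to the nearest library was 0.852 of the whole range, above Dixon's critical value for 4 samples. Chance flags about 1 in 20 such groups.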

How the results depend on the processing

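The 9 differences between genes kept their sign under each alternative run, except that Cbx5 minus Cbx1 was -0.34 with the length of the longest transcript (exact permutation p = 0.25) in place of 0.47, the longest transcript of Cbx1 being 2377 bases of 4273 exon bases and that of Cbx5 8803 of 9006. The number of detected H3K9 genes with an SD above 0.5 was 6. It was 0 with a limit of 1 and 1 with median-ratio size factors, and 2 to 7 when leaving out 1 library. The share of all detected genes was not computed for the runs that left out a library. The number of H3K9 genes detected was 8 to 10 and that of the further pathway genes 29 under the other thresholds and without each library. On the deposited scaling, 10 of 10 genes differed beyond counting error with the recovered reads divided by 2, chosen after seeing the data. Without library 1 it was 9. The division was not run with size factors, where Setdb2 had an adjusted p of 0.047 (chi-square test) with undivided reads. No paired analysis was possible because there is 1 group, which leaves no second group to pair with; the differences between genes are taken within libraries. Depth limits Suv39h2 and Setdb2, with 17 to 181 and 33 to 72 reads.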

Other observations

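Genes that H3K9 and DNA methylation are known to keep silent outside the germ line were mostly without reads. None of the 10 germline genes listed was detected in 4 of 4 libraries, where 47.4% of all genes in the table were, and 7 had no reads in any library, beside 28.7% of all genes: Tuba3a, Mael, Taf7l, Asz1, Stk31, Dazl and Tdrd1. Ddx4, a germ cell helicase gene, had 1 read in library 1. Sycp3, a gene of the synaptonemal complex, had 22, 17, 51 and 31 reads, and Brdt, a testis bromodomain gene, 55, 57, 10 and 28. Sycp3 was thus highest in library 3 and Brdt in libraries 1 and 2.

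Of the 4 inflammation-induced genes that H3K9 dimethylation has been linked to in vascular smooth muscle, none was detected in 4 of 4 libraries, where 47.4% of all genes were. Mmp12, the macrophage elastase gene, had 35, 16, 8 and 5 reads, and the gelatinase gene Mmp9 2 to 11. Mmp3 had 785, 2492, 13 and 6 reads in libraries 1 to 4, and Il6 270, 232, 0 and 0.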
